A study of Mus musculus with 6 samples.

Results

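Chemokine receptors and CXC chemokines were examined in cultured fetal liver macrophages with and without Ahrr. The set holds 9 listed genes: the receptors Ccr1, Ccr2, Ccr7, Cx3cr1 and Cxcr4, the atypical receptor Ccrl2, and the ligands Cxcl1, Cxcl2 and Cxcl16. Members were taken by gene symbol from the annotated expression table of 16111 genes, in which 8 of the 9 had a row. Ccr7, the receptor that guides dendritic cells to lymph nodes, had none. Of the 8 genes, 6 had enough counts to be tested, among 11408 tested genes in all, while Cx3cr1 and Cxcl1 were under the filter on low counts.

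The samples were 6 macrophage cultures from fetuses of the strain C57BL/6 RCC at embryonic stage E13.5, of which 3 were wild-type (WT) and 3 were AhRR-/-, called Ahrr-deficient here. Ahrr encodes the aryl hydrocarbon receptor repressor, which represses the ligand-activated transcription factor AhR. Both genotypes were kept for 5 weeks in RPMI medium with fetal calf serum and 2% GM-CSF, and the non-adherent cells were sequenced, so adherent cells of the same cultures are not represented. The labels number the mice 1 to 3 in each genotype and do not describe the targeted allele.

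Chemokines are small secreted proteins that steer the migration of leukocytes through receptors of the G-protein-coupled family. Conventional receptors signal through inhibitory G proteins and are then phosphorylated by GRK kinases and bound by arrestins. Atypical receptors bind or present chemoattractants without this G-protein signalling. In macrophages and monocytes, CC and CX3C receptors direct entry into tissue, Cxcr4 is known for retention in bone marrow, and Cxcl1 and Cxcl2 are released to attract neutrophils.

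Library totals ranged from 3556106 counts in Ahrr-deficient replicate 1 to 41668336 in Ahrr-deficient replicate 2, so that 3 counts, taken as the limit of detection, stood for 0.844 to 0.0720 CPM (counts per 1000000 library counts). WT replicate 2 had 5.28% of its counts on a ribosomal RNA gene, against at most 0.0679% elsewhere. All 14 listed macrophage markers were present, with a summed level of 56939 to 64138 CPM in WT and 49721 to 59146 CPM in Ahrr-deficient libraries. The targeted gene Ahrr lay between 4.29 and 5.32 CPM in WT and between 1.21 and 2.57 CPM in Ahrr-deficient libraries (log2 fold change -1.21, with SE 0.26 and adjusted p = 0.0151 in edgeR), and its call was lost in 3 of 13 alternatives, the fits without WT replicate 1 (adjusted p = 0.0631) and without WT replicate 3 (adjusted p = 0.0502) and the thinned libraries (adjusted p = 0.102). Fewer cells of a type and less RNA per cell cannot be told apart in these bulk samples.

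Of the 6 tested members, Ccrl2 and Cxcr4 fell in Ahrr-deficient cells and 0 rose. By the same edgeR call, at an adjusted p under 0.05, 19.6% of all tested genes differed, with 9.95% lower and 9.62% higher. With 6 genes this share cannot be set apart from that background, and the account below is of the single genes. The groups did not overlap in CPM for Ccr1, Ccrl2 and Cxcr4, against 36.6% of all tested genes. Both called members fell by at least 2-fold in the fit, as did 2.6% of tested genes. Cxcr4 lay near this cut, with CPM means that differed by 1.90-fold. Its log2 fold change was -0.85 after thinning, -0.88 without WT replicate 2 and -0.83 without Ahrr-deficient replicate 3.

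Promoter sequences of the 2 members that fell, of Cxcl2, whose estimate was also below 0, and of Ccr1, whose estimate was near 0, are shown to set the start regions of these genes side by side. RefSeq (GRCm38.p6) gave a promoter of 250 bases before and 50 after a start site for 7 of the 9 members. The 4 printed regions are chr9:111057469-111057768 for Ccrl2, chr1:128592250-128592549 for Cxcr4 and chr9:123968643-123968942 for Ccr1, all on the minus strand, and chr5:90903649-90903948 for Cxcl2 on the plus strand. Capitals mark matches, on either strand, to the AhR response core GCGTG, the AP-1 motif TGANTCA, the CRE motif TGACGTCA, the NF-kB consensus or the TATA element TATAAA, none of which overlapped a match to another of these motifs here.
Ccrl2: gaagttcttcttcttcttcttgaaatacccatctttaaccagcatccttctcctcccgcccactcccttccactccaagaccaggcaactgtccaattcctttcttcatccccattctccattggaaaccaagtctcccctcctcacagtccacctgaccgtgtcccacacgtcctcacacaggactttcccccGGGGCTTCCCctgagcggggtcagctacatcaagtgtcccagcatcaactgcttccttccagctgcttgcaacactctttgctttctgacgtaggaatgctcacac
Cxcr4: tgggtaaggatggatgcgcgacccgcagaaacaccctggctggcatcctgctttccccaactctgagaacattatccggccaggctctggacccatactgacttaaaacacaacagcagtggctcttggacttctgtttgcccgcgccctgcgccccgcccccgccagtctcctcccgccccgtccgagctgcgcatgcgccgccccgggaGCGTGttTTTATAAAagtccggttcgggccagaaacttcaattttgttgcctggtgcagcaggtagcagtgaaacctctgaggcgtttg
Cxcl2: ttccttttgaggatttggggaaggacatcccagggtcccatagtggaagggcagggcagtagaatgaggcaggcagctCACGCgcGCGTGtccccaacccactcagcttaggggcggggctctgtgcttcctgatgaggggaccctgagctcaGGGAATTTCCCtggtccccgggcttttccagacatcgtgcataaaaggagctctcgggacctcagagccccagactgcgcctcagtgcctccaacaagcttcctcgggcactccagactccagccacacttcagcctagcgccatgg
Ccr1: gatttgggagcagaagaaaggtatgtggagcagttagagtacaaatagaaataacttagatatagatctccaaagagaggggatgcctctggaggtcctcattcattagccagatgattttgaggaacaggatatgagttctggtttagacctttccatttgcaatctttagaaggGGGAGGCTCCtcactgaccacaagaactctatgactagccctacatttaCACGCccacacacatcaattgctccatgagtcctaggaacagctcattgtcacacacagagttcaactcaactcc

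In the printed Ccrl2 promoter the NF-kB consensus matched GGGGCTTCCC, 56 bases before the start. RefSeq gives 2 other Ccrl2 starts, 248 and 274 bases downstream. Their windows do not hold this match, and each holds 1 AhR core that the printed window lacks. The core is the same site in both, 14 bases after the start that lies 248 bases downstream and 12 bases before the other. The printed window is the one whose start lies nearest to that of the GENCODE gene. The Cxcr4 promoter had 1 AhR core 39 bases before the start and TATAAA 30 bases before it, with a reverse-strand match beginning 32 bases before it. The Cxcl2 promoter had 2 AhR cores, 172 and 165 bases before the start, and the NF-kB match GGGAATTTCC 97 bases before it. The same 10 letters stood 71 bases before the start of Cxcl1, which is not printed. Ccr1 had 1 AhR core and 1 NF-kB match, 25 and 74 bases before the start. Among 32851 promoters of the same length, 32.4% held the AhR core, 8.46% the NF-kB consensus and 13.6% TATAAA. The AP-1 and CRE motifs, held by 7.81% and 1.79% of promoters, matched in none of the 7 or of the other Ccrl2 windows. These matches are a description of the letters in the window.

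Ccrl2 (ENSMUSG00000043953.12, chromosome 9, 111054486 to 111057519, GRCm38) encodes an atypical receptor that binds the chemoattractant chemerin without signalling through G proteins. It stood at 265, 319.5 and 303 CPM in WT replicates 1, 2 and 3. In Ahrr-deficient replicates 1, 2 and 3 it stood at 93.1, 35.3 and 37.9 CPM. Every Ahrr-deficient library lay far under every WT library, and replicate 1 lay above the other Ahrr-deficient libraries. The means were 296 ± 28.0 CPM in WT and 55.4 ± 32.6 CPM in Ahrr-deficient cells (SD, n = 3), so that WT was 5.33-fold higher. The log2 fold change was -2.58 (SE 0.34 and adjusted p = 0.00285 in edgeR), and 31 of 11408 tested genes (0.272%) had a value as low or lower. Without Ahrr-deficient replicate 1 the log2 fold change was -3.12.

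Because Ccr1 is read from the same libraries, the ratio of Ccrl2 to Ccr1 reads does not depend on any scaling. WT libraries held 0.971, 1.26 and 1.16 Ccrl2 reads for each Ccr1 read. In the Ahrr-deficient libraries the ratio was 0.327, 0.128 and 0.136. The ratio was lower in all 3 Ahrr-deficient libraries than in any WT library, and its mean went from 1.13 ± 0.146 to 0.197 ± 0.113 (SD, n = 3).

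Cxcr4 (ENSMUSG00000045382.6, chromosome 1, 128588199 to 128592293) encodes the receptor for Cxcl12. Its level was 54.5, 66.7 and 56.5 CPM in the WT libraries. The Ahrr-deficient libraries held 38.8, 33.0 and 21.7 CPM. All 3 were under the lowest WT library, and the lowest value belonged to Ahrr-deficient replicate 3. The means were 59.2 ± 6.54 and 31.2 ± 8.67 CPM (SD, n = 3), with a log2 fold change of -1.03 (SE 0.20 and adjusted p = 0.0103 in edgeR). Its ligand gene Cxcl12 had no row in the table. Ackr3 (ENSMUSG00000044337.5), which encodes the atypical receptor that takes up Cxcl12, fell beside it, from 73.1, 76.5 and 67.4 CPM to 45.3, 27.7 and 40.6 CPM (log2 fold change -1.06, with SE 0.18 and adjusted p = 0.00658 in edgeR).

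**Figure D1:**
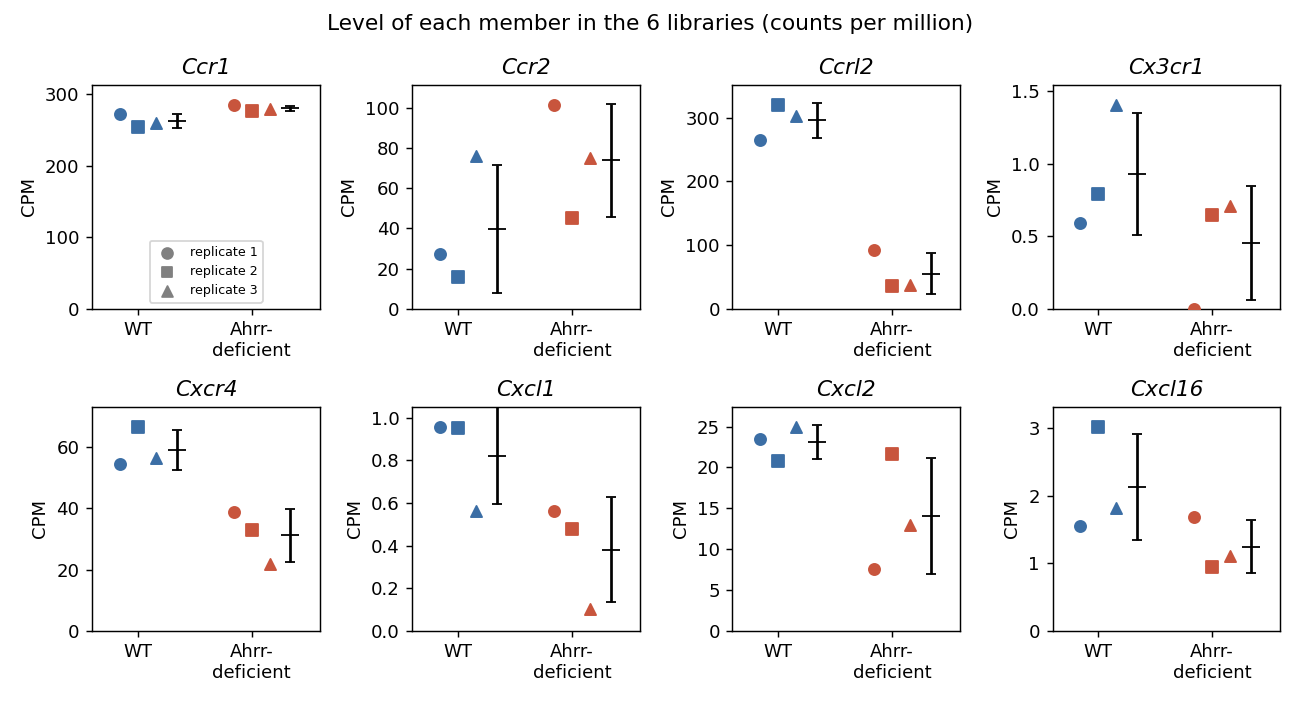
Level of each of the 8 members in CPM (linear axes from 0) in the 3 WT and 3 Ahrr-deficient libraries, with the mean and SD of each group in black and a marker shape for each replicate number. Ccrl2 and Cxcr4 are lower in every Ahrr-deficient library than in any WT library, Ccr1 differs little, and Ccr2 spreads widely within both groups.

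Ccr1 (ENSMUSG00000025804.5, chromosome 9, 123962124 to 123968692) encodes a receptor for Ccl3, Ccl6, Ccl9 and related CC ligands. It was steady across libraries, at 273, 254 and 260.3 CPM in WT and 285, 277 and 279 CPM in Ahrr-deficient cells. The CPM values did not overlap between the groups, but after TMM scaling, which raised WT replicate 2 to 281, they did, with 255 to 281 in WT and 266 to 282 in Ahrr-deficient libraries. The log2 fold change was 0.02 (SE 0.08 and adjusted p = 0.901 in edgeR), while its sign changed with upper-quartile scaling. Over 14 alternatives it stayed between -0.03 and 0.05.

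Ccr2 (ENSMUSG00000049103.14, chromosome 9, 124101950 to 124113557) encodes the receptor for Ccl2 through which monocytes leave the bone marrow. WT replicates 1, 2 and 3 had 27.5, 15.7 and 75.8 CPM, a 4.82-fold range within the genotype. The Ahrr-deficient replicates had 101, 45.1 and 75.0 CPM, a 2.24-fold range. The groups overlapped through WT replicate 3, which reached the level of Ahrr-deficient replicate 3. The log2 fold change of 0.82 (SE 0.47) did not pass the test (edgeR adjusted p = 0.245). It was 1.59 without WT replicate 3, with an adjusted p of 0.0304, kept its value but passed without a filter (adjusted p = 2.18e-10), and ran from 0.50 to 1.11 in the other fits that left out 1 library. CC receptor genes share similar stretches of coding sequence, so some reads of Ccr2 are uncertain.

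Markers of monocytes were read beside Ccr2. Of 6 markers reported here, 4 had a row and 2 were tested. Spn, the gene of the surface protein CD43, was higher, with 10.8, 7.46 and 13.6 CPM in WT and 24.2, 20.5 and 27.1 CPM in Ahrr-deficient libraries (log2 fold change 1.08, with SE 0.18 and adjusted p = 0.00588 in edgeR). Nr4a1, a nuclear receptor gene known for its part in patrolling monocytes, was lower, with 180, 183 and 152 CPM against 80.7, 46.6 and 68.7 CPM (log2 fold change -1.51, with SE 0.20 and adjusted p = 0.00279 in edgeR). Nr4a1 made up most of the summed level, which was 167 to 192 CPM in WT and 67.6 to 105 CPM in Ahrr-deficient libraries. Ly6c2, which defines classical monocytes, had no row. The part of these markers in the Ccr2 values was not tested.

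Cx3cr1 (ENSMUSG00000052336.7, chromosome 9, 119901616 to 120069879) encodes the receptor for the membrane-bound chemokine Cx3cl1. Its counts were 13, 5 and 10 in the WT replicates and 0, 27 and 7 in the Ahrr-deficient ones, or at most 1.40 CPM. A count of 0 in Ahrr-deficient replicate 1 allows a level of up to 0.844 CPM, and the groups overlapped, so a difference was not detectable at this depth. Gm33858, on the opposite strand, shares 78 of its 4505 exon bases. Without a filter its log2 fold change was -0.56 (SE 0.49 and adjusted p = 0.511 in edgeR). Its ligand gene Cx3cl1 (ENSMUSG00000031778.13) fell, from 15.1, 10.2 and 18.5 CPM in WT to 6.75, 5.78 and 7.99 CPM in Ahrr-deficient cells (log2 fold change -1.21, with SE 0.20 and adjusted p = 0.00628 in edgeR).

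Cxcl2 (ENSMUSG00000058427.10, chromosome 5, 90903871 to 90905938) encodes a neutrophil attractant that acts through Cxcr2. Its values were even in WT, at 23.5, 20.8 and 24.9 CPM. Ahrr-deficient replicates 1, 2 and 3 had 7.59, 21.7 and 12.9 CPM. Replicates 1 and 3 lay under all WT libraries, while replicate 2 lay within their range. The log2 fold change was -0.62 (SE 0.25), which did not pass the test (edgeR adjusted p = 0.114). Without Ahrr-deficient replicate 2, the deepest library, it was -1.13 with an adjusted p of 0.0118, and with DESeq2 the adjusted p was 0.0481, and the fit without a filter also passed (adjusted p = 2.05e-04). The WT libraries differed by 1.20-fold and the Ahrr-deficient ones by 2.85-fold.

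Cxcl1 (ENSMUSG00000029380.11, chromosome 5, 90891241 to 90893115), whose start lies 12.6 kb from that of Cxcl2, encodes another ligand of Cxcr2. It had 21, 6 and 4 counts in WT and 2, 20 and 1 counts in Ahrr-deficient libraries, or 0.957, 0.952 and 0.560 CPM against 0.562, 0.480 and 0.101 CPM. The groups met at WT replicate 3 and Ahrr-deficient replicate 1, and the fit without a filter gave a log2 fold change of -1.16 (SE 0.52 and adjusted p = 0.157 in edgeR). Cxcl3 (ENSMUSG00000029379.10), another ligand of this kind and also under the filter, had 15, 1 and 2 counts in WT and 4, 187 and 14 counts in Ahrr-deficient libraries. It stood at 0.684, 0.159 and 0.280 CPM against 1.12, 4.49 and 1.42 CPM, higher in each Ahrr-deficient library (log2 fold change 2.47, SE 0.75, DESeq2 adjusted p = 0.0102), and was singled out after its values were seen. It entered the edgeR fits that left out 1 WT library, with adjusted p between 0.0617 and 0.0677, and the fit without Ahrr-deficient replicate 1, with an adjusted p of 0.00826. In each of these fits Cxcl3 passed the filter through Ahrr-deficient libraries alone, where it was high, so these values carry that selection. Of its 223 counts, 187 came from Ahrr-deficient replicate 2, the deepest library. Cxcl1, Cxcl2 and Cxcl3 have similar coding sequences, so their low counts are uncertain.

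Their receptor gene Cxcr2 (ENSMUSG00000026180.8) had 11.6, 9.21 and 24.7 CPM in WT and 8.44, 2.14 and 3.14 CPM in Ahrr-deficient libraries. It fell, with a log2 fold change of -2.25 (SE 0.49 and adjusted p = 0.0158 in edgeR), but the gap between WT replicate 2 and Ahrr-deficient replicate 1 was small. The call was lost without Ahrr-deficient replicate 2 (adjusted p = 0.0823), without Ahrr-deficient replicate 3 (adjusted p = 0.0658) and with DESeq2 (adjusted p = 0.0508). Cxcr2 is a defining receptor of neutrophils, whose other markers were read beside it. Of 10 listed, 3 had a row: S100a8 did not exceed 2.22 CPM and Ltf 0.560 CPM, S100a9, Ly6g, Elane and Mpo had no row, and Mmp8, which rose, made up nearly all of the summed 81.3 to 137 CPM in WT and 189 to 290.3 CPM in Ahrr-deficient libraries. Their part in the Cxcr2 values was not tested.

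Cxcl16 (ENSMUSG00000018920.11, chromosome 11, 70453983 to 70459984) encodes a chemokine anchored in the membrane, released by the protease Adam10 and bound by Cxcr6. It had 34, 19 and 13 counts in WT and 6, 39 and 11 counts in Ahrr-deficient libraries, or 1.55, 3.02 and 1.82 CPM against 1.69, 0.936 and 1.11 CPM. Ahrr-deficient replicate 1 fell between the WT values. The log2 fold change was -0.96 (SE 0.37), short of the threshold (edgeR adjusted p = 0.0962), and none of 12 alternatives passed. Exons of Zmynd15 on the opposite strand share 552 of its 3021 exon bases, and whether reads were counted by strand is not given in the sources used here, so these reads are uncertain. Cxcr6 had at most 1.41 CPM and was under the filter. Adam10 had 374 to 461 CPM in WT and 399 to 514 CPM in Ahrr-deficient libraries (log2 fold change 0.03, with SE 0.13 and adjusted p = 0.911 in edgeR).

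Levels of different genes were compared per kilobase of merged exons, as CPM per kilobase. In WT the order was Ccrl2 (114 ± 10.8), Ccr1 (92.6 ± 3.33), Cxcr4 (32.7 ± 3.62), Cxcl2 (11.2 ± 1.02), Ccr2 (5.87 ± 4.71), Cxcl16 (0.705 ± 0.258), Cxcl1 (0.439 ± 0.121) and Cx3cr1 (0.206 ± 0.0934), each a mean and SD over 3 libraries. Library values overlapped between Cxcl2 and Ccr2 and between Cxcl1 and Cx3cr1, and the lowest of Cxcl16 (0.513) barely exceeded the highest of Cxcl1 (0.510). In Ahrr-deficient cells Ccr1 came first at 98.9 ± 1.39, above Ccrl2 at 21.3 ± 12.6 and Cxcr4 at 17.2 ± 4.80, whose values overlapped. Ccr2 at 10.9 ± 4.15 and Cxcl2 at 6.80 ± 3.44 came next and overlapped as well, and Ccr2 also overlapped with both Cxcr4 and Ccrl2. Cxcl16, Cxcl1 and Cx3cr1 kept the lowest 3 places, at 0.412 ± 0.130, 0.203 ± 0.131 and 0.10 ± 0.0871, with overlap between the last pair.

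As a share of the reads per kilobase summed over 13 chemokine receptor genes with a row, Ccrl2 made up 39.2%, 44.0% and 41.4% in WT and 18.7%, 9.22% and 9.62% in Ahrr-deficient libraries. Ccr1 made up 37.0%, 32.1% and 32.6% in WT against 52.4%, 66.3% and 65.0%. Cxcr4 made up 11.9 ± 1.1% in WT and 10.5 ± 2.30% in Ahrr-deficient cells (SD, n = 3), and the libraries overlapped. The summed level of the 13 genes was 274 ± 11.9 CPM per kilobase in WT and 164 ± 24.3 in Ahrr-deficient cells (SD, n = 3), so a larger share of Ccr1 came with a lower sum. Shares are bound to add up to the whole, and Ccr1 itself had nearly the same level in both genotypes.

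**Figure D2:**
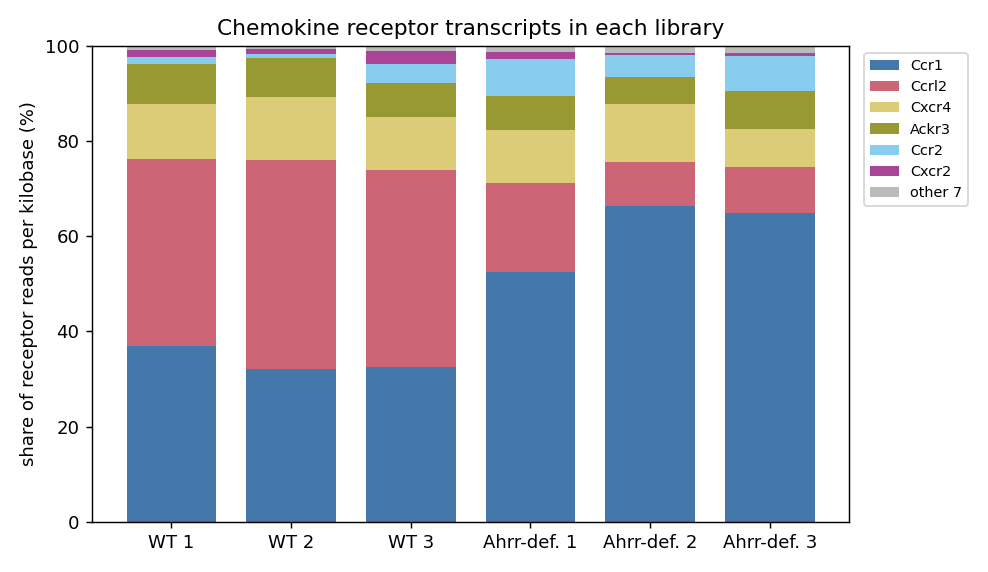
Share of each chemokine receptor (%, of reads per kilobase summed over 13 receptor genes) in each of the 6 libraries, as stacked bars with the 7 scarcest genes pooled. The Ccrl2 segment is between 39.2% and 44.0% in WT and between 9.22% and 18.7% in Ahrr-deficient libraries, and the Ccr1 segment is larger in the latter.

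Of the other chemokine receptor genes reported here, 17 were listed, 8 had a row and 3 were tested. Cxcr2 and Ackr3 fell, and Ccr10 did not pass (log2 fold change -0.13, with SE 0.26 and adjusted p = 0.753 in edgeR). Over all tested genes 9.95% were lower by the same call. The list is not complete, and no direction of the family as a whole is given. Of 14 other CXC, CX3C and XC ligands, 4 had a row and 2 were tested, of which Cx3cl1 fell and Cxcl14 did not pass (log2 fold change -0.40, with SE 0.23 and adjusted p = 0.238 in edgeR). The 1 call became 2 without a filter, with DESeq2 and without Ahrr-deficient replicate 1.

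Of 11 CC ligands of the member receptors, 7 had a row, 5 were tested and 3 rose, against 9.62% higher over all tested genes. The median log2 fold change of this list was 0.88, against 0.01 over all tested genes. Ccl6 (ENSMUSG00000018927.3) and Ccl9 (ENSMUSG00000019122.8), abundant ligands of Ccr1, rose by 1.11 (SE 0.16 and adjusted p = 0.00371 in edgeR) and 0.88 (SE 0.14 and adjusted p = 0.00480 in edgeR) on the log2 scale. Ccl2 (ENSMUSG00000035385.5), the ligand of Ccr2, rose from 2.46, 2.06 and 0.560 CPM to 2.53, 9.65 and 7.69 CPM (log2 fold change 1.93, with SE 0.45 and adjusted p = 0.0197 in edgeR). Its lowest Ahrr-deficient value nearly touched the highest WT value. The Ccl2 call held in 7 of 13 alternatives and was lost with the replicate block (adjusted p = 0.0618) and with any 1 of 5 libraries left out, at adjusted p between 0.0502 and 0.104. Those 5 were all libraries but Ahrr-deficient replicate 1. Ccl3 and Ccl4 had log2 fold changes of 0.55 (edgeR adjusted p = 0.110) and 0.23 (edgeR adjusted p = 0.584). Ccl19 and Ccl21a, the ligands of Ccr7, had no row.

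**Figure D3:**
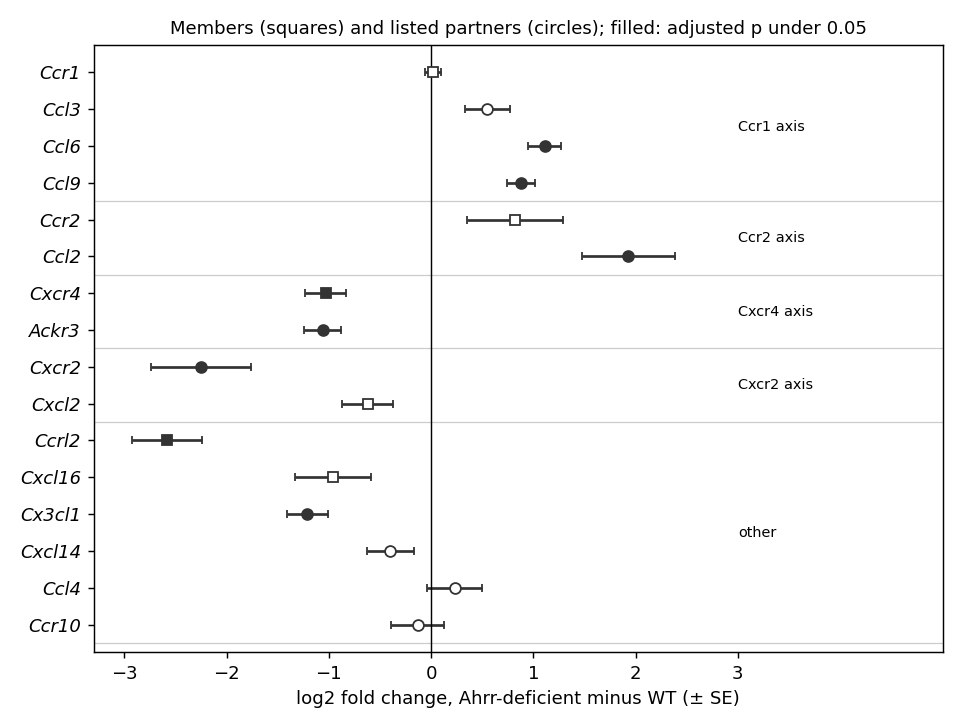
Log2 fold change (Ahrr-deficient minus WT, bars show the SE) of the 6 tested members (squares) and 10 tested chemokine and receptor genes of the lists (circles), grouped by receptor. Filled symbols passed an edgeR adjusted p of 0.05; Ccrl2, Cxcr2, Cx3cl1, Ackr3 and Cxcr4 lie at or below -1.03, while Ccl2, Ccl6 and Ccl9 lie above 0.

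Genes that act below the receptors came from a list of their own. Among 23 listed G proteins and effectors, 22 were tested, with 2 higher and 4 lower, against 9.62% higher and 9.95% lower over all tested genes. The median log2 fold change of this list was -0.01. The 6 calls became 3 without WT replicate 1. Pik3r5, a regulatory subunit of the PI3-kinase gamma that chemokine receptors activate, fell from 316 ± 8.78 to 186 ± 36.4 CPM (SD, n = 3, log2 fold change -0.85, with SE 0.14 and adjusted p = 0.00595 in edgeR). Ptk2b, a calcium-sensitive tyrosine kinase, and Gng2, a G-protein gamma subunit, fell by 0.71 (SE 0.11 and adjusted p = 0.00533 in edgeR) and 0.65 (SE 0.10 and adjusted p = 0.00519 in edgeR) on the log2 scale. Gnai3, an inhibitory G-protein alpha subunit, rose by 0.42 (SE 0.08 and adjusted p = 0.0103 in edgeR), a call lost in that fit (adjusted p = 0.0736). Exons of Gng2 share 897 bases with Gm48283 on the opposite strand. Gnai2, the more abundant inhibitory subunit gene in these counts, had a log2 fold change of -0.32 (SE 0.10 and adjusted p = 0.0573 in edgeR).

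In the list for receptor desensitisation and trafficking 9 of 11 symbols had a row, 9 were tested and Grk3 alone passed, against 2 genes without Ahrr-deficient replicate 1. Over all tested genes 19.6% passed. Grk3, a kinase that phosphorylates activated receptors, fell from 37.8, 31.1 and 46.0 CPM to 21.1, 16.8 and 17.1 CPM (log2 fold change -1.17, with SE 0.14 and adjusted p = 0.00203 in edgeR). The list had a median log2 fold change of -0.07, and the arrestin genes Arrb1 and Arrb2 did not pass (edgeR adjusted p = 0.139 and 0.0918). In the list for shedding and cleavage 7 of 9 genes had a row, 6 were tested and Mmp8, a collagenase gene, rose, with a log2 fold change of 0.98 (SE 0.22 and adjusted p = 0.0165 in edgeR) that lost its call without Ahrr-deficient replicate 2 (adjusted p = 0.0584). The median of that list was 0.26, and its 1 call became 3 without Ahrr-deficient replicate 1, 4 without a filter, and 2 with DESeq2 or the replicate block.

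Because Cxcl1 and Cxcl2 are known targets of NF-kB, other inflammatory genes that respond to it were listed. Of 18, 15 had a row and 14 were tested, with 1 higher and 6 lower and a median log2 fold change of -0.22, against 9.62% higher, 9.95% lower and a median of 0.01 over all tested genes. The 7 calls became 4 without WT replicate 1, without WT replicate 2, without Ahrr-deficient replicate 2, with the replicate block and after thinning. Zfp36, which encodes an RNA-binding protein that speeds decay of inflammatory transcripts, fell from 456 ± 58.4 to 152 ± 46.6 CPM (SD, n = 3, log2 fold change -1.67, with SE 0.20 and adjusted p = 0.00228 in edgeR). Il1b, the gene of interleukin-1 beta, and Tnfaip3, which encodes an inhibitor of NF-kB, fell by 1.50 (SE 0.26 and adjusted p = 0.00658 in edgeR) and 0.95 (SE 0.17 and adjusted p = 0.00716 in edgeR) on the log2 scale. Tnf, at no more than 5.18 CPM, rose by 1.43 (SE 0.33 and adjusted p = 0.0181 in edgeR), and its call was lost with the replicate block (adjusted p = 0.0546), without any 1 WT replicate (adjusted p between 0.0582 and 0.0622) and without Ahrr-deficient replicate 2 (adjusted p = 0.120). Il1a, Il6, Nfkbia, Nfkbiz, Icam1, Sod2 and Bcl3 did not pass, with log2 fold changes between -0.26 and 0.46 and edgeR adjusted p of at least 0.0718. The list thus held genes moving both ways and genes that did not pass.

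Patterns over the 6 libraries were compared with the members' by the root mean square difference of centred log2 CPM, where 0 is identity, over the 10034 genes that averaged 50 counts or more. The nearest to Ccrl2 were Csf3r, the receptor gene of G-CSF, at 0.199, and Arrdc3, an arrestin-domain gene, at 0.229. Csf3r had 7.79, 6.98 and 8.13 CPM in WT and 2.81, 1.03 and 1.11 CPM in Ahrr-deficient libraries, with replicate 1 highest among the latter as for Ccrl2. Nearest to Cxcr4 were Atf3, a stress-induced transcription factor gene, and Sdc4, the gene of syndecan-4, both at 0.121. Atf3 had 187, 181 and 188 CPM in WT and 113, 105 and 72.2 CPM in Ahrr-deficient libraries. The nearest genes to Ccr2 were Pilrb1 at 0.361 and Gm21188 at 0.372, farther than the nearest to any other tested member. For Ccr1 they were Snrnp200 and Arhgap24, both at 0.023. For Cxcl2 they were Gm15427 at 0.163 and 3110062M04Rik at 0.167, and for Cxcl16 Fgf11 at 0.082 and Dpysl2 at 0.169. These are descriptions over 6 libraries that share a genotype split.

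**Figure D4:**
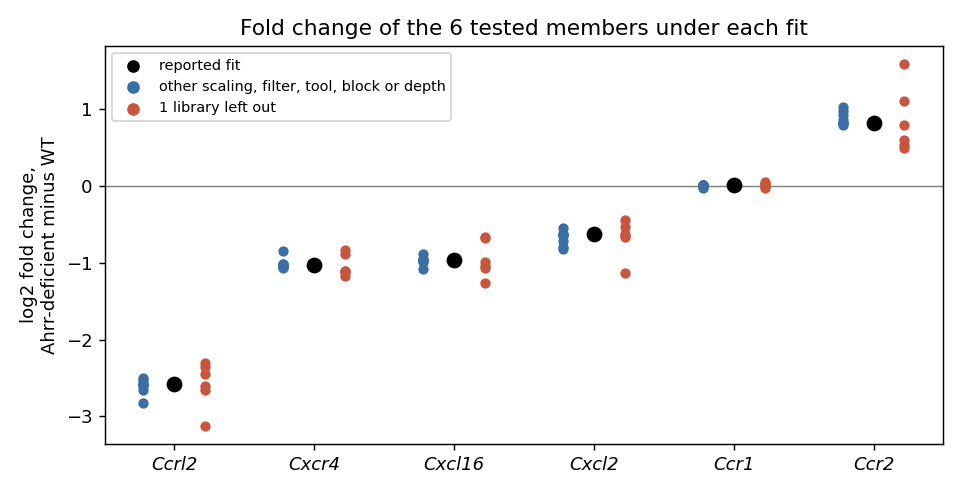
Log2 fold change (Ahrr-deficient minus WT) of the 6 tested members in the reported fit (black), with another scaling, filter, tool, block or depth (blue) and with 1 library left out (red). Ccrl2 stays between -3.12 and -2.30 and Cxcr4 between -1.17 and -0.83, while Ccr2 moves between 0.50 and 1.59 when a library is left out.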

How the data were processed

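RNA was sequenced from 6 macrophage cultures as single 75 bp reads. Per the submitters' processing notes, CASAVA 1.8.2, fastp 0.20.0, STAR 2.7.10b, SAMtools 1.16.1, R 4.3.1 and DESeq2 1.40.2 were used and the build was mm10; the counting program, its use of strand and the annotation are not given in the sources used here. The authors deposited raw counts for 53465 features without identifiers. A normalized signal was deposited as well by the authors, counts divided by 1 size factor per library, for 16111 genes with identifiers; 100% of these values were whole reads (within 0.01 reads) and equalled the raw counts of all features with at least 10 counts in total. Features without an identifier held 0.0232% to 0.0511% of a library and stayed in the totals.

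Identifiers were matched to GENCODE mouse release 21 (GRCm38), which held 16088 of 16111. CPM are counts per 1000000 library counts. Genotypes were compared with edgeR 4.0.16 in R 4.3.3 (quasi-likelihood test, TMM, filterByExpr, genotype as the only term, two-sided, Benjamini-Hochberg over 11408 genes, threshold 0.05), tested on simulated data. The simulation gave every gene the same spread between libraries, so it does not cover the uneven spread of these libraries. SEs come from the F statistic. Alternatives were RLE and upper-quartile scaling, DESeq2 1.42.0, no filter, a minimum mean of 50 counts, voom with limma 3.58.1, the replicate block, thinning to the smallest total and each library left out. Named are the members, Ahrr, chemokine-list genes past the threshold, of each other list the 4 largest changes among genes past the threshold and averaging 20 counts or more, and the 2 nearest patterns per member; other genes were chosen after their values were seen. Some listed genes are not reported here and were left out of the lists and shares after the data were seen. Members and lists were chosen with earlier results of these data known. Replicate libraries differed by more than sampling noise (chi-square per degree of freedom of at least 5.79). Floors cover counting error only, while SDs and SEs also include the spread between libraries. Plots were made with Python 3.11.15 and matplotlib 3.10.9.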

Additional observations from a re-analysis of the deposited data

How the results depend on the processing

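Ccrl2 and Cxcr4 stayed lower and past the threshold in all 14 alternatives. Of 82 values recomputed for single members, 73 stayed on their side of the threshold with the same sign. The log2 fold change of Ccr1 turned to -0.01 with upper-quartile factors and -0.03 after thinning, and lay between -0.03 and 0.05 when 1 library was left out. The number of members called higher was 1, Ccr2, without a filter and 0 to 1 when 1 library was left out, against 0. The number of genes called was 1390 with the replicate block and 1166 after thinning to the smallest total, against 2232, and ran from 694 without WT replicate 1 to 3857 without Ahrr-deficient replicate 1. The fit without a filter tested 24416 features and gave adjusted p-values far under the others, such as 1.04e-106 for Ccrl2, so it is not on the same footing. Causes were not tested.

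Same-numbered libraries come from different mice. Their deviations from the group means had correlations of -0.169, 0.0714 and 0.129 for numbers 1, 2 and 3, and WT replicate 1 correlated best with Ahrr-deficient replicate 3 (0.163). With the replicate block 2 members were called lower and 0 higher, as without it. Depth limits Cx3cr1, Cxcl1 and Cxcl16, with 62, 54 and 122 counts in all. Thinning and a mean of at least 50 counts removed Cxcl16.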

Other observations

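The genomic neighbours of the members were counted, taking genes whose start lies within 300 kb. Around Ccrl2, 7 neighbours were tested, of which 3 fell and 0 rose, against 9.95% lower and 9.62% higher over all tested genes. The closest was Gm43814 (ENSMUSG00000104654.1, chromosome 9, 111052781 to 111053193, minus strand), on the strand of Ccrl2, which begins 1292 bases past the 3′ end of Ccrl2. Its annotation class, TEC, marks a gene still to be established by experiment. It had 3.46, 4.29 and 1.54 CPM in WT and 0.562, 0.408 and 0.404 CPM in Ahrr-deficient libraries. The log2 fold change was -2.96 (SE 0.44 and adjusted p = 0.00403 in edgeR). However, Gm43814 passed the filter on low counts through the WT libraries alone, where it was high, so its call carries that selection. In Ahrr-deficient replicate 1 it lay under the limit of detection of 0.844 CPM, so the size of its fall is uncertain. The next closest tested gene, Lrrfip2, with its start 60.1 kb away, had a log2 fold change of 0.32 (SE 0.11 and adjusted p = 0.0629 in edgeR). Als2cl and Tmie, both over 177 kb away, fell by 0.43 (edgeR adjusted p = 0.0153) and 1.89 (edgeR adjusted p = 0.0213) on the log2 scale. Tmie was scarce as well, with means of 2.03 CPM in WT and 0.765 CPM in Ahrr-deficient libraries. Whether reads on Gm43814 belong to transcripts of Ccrl2 was not tested.

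Around Cxcl16, 5 of 16 tested neighbours fell and 0 rose, against the same shares over all tested genes. Among these 5, Rnf167 had a log2 fold change of -0.62 (SE 0.10 and adjusted p = 0.00527 in edgeR) and Mink1 one of -0.39 (SE 0.07 and adjusted p = 0.00912 in edgeR). Of 5 tested around Cx3cr1, 1 fell and 0 rose, and of 2 around Cxcr4, 1 rose and 0 fell. Around Cxcl1 and Cxcl2, 0 were called. The counts around Ccr1 and Ccr2 are not reported here, and no direction of the neighbours as a whole is given.

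Markers of other cell types were counted by list. None of 6 lymphoid and 5 eosinophil markers had a row. Erythroid and hepatocyte markers summed to at most 0.841 and 0.864 CPM in any library, and endothelial and stromal markers to 10.5 CPM. Of 9 mast cell and basophil markers, Hdc alone had a row, at most 0.281 CPM. Of 11 dendritic cell markers 7 had a row and 4 were tested. Irf4 (log2 fold change 1.40, edgeR adjusted p = 8.97e-04) and Clec9a (0.49, edgeR adjusted p = 0.0256) rose, against 9.62% higher over all tested genes, and the other tested markers did not pass. Exons of Clec9a share 184 bases with Clec1b on the same strand, so some of its reads are uncertain. Flt3 and Cd209a had no row, and the summed level was 81.1 to 89.3 CPM in WT and 150.2 to 158 CPM in Ahrr-deficient libraries. Among the 14 macrophage markers Itgax rose (log2 fold change 1.70, edgeR adjusted p = 6.96e-04) and Csf1r fell (-0.65, edgeR adjusted p = 0.0304), although exons of Csf1r share 873 bases with Hmgxb3 on the opposite strand. The part of these markers in the chemokine receptor values was not tested.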
